A study of Homo sapiens with 6 samples.

Results

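The epithelial ETS and grainyhead-like transcription factors and their OVO-like neighbours were examined in SKOV3, an established human ovarian cancer cell line, after silencing of KLF5. Of 10 genes chosen by name (EHF, ELF3, ELF1, ETS1, ETS2, GRHL1, GRHL2, GRHL3, OVOL1 and OVOL2), 8 had a row among the 29185 genes of the deposited table, and GRHL2 and OVOL1 were not analysed here. Enough reads for the test across genes were found for 5 of the 8, namely EHF, ELF1, ETS1, ETS2 and GRHL1. The rule named the genes and used no measured value, although earlier results of these data were known when the genes were picked.

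Polyadenylated RNA was sequenced from SKOV3 cells carrying a short hairpin against KLF5 in a pLKO lentiviral vector (sh-KLF5, 3 libraries) and from SKOV3 cells carrying the control hairpin (sh-NC, 3 libraries), which the sample labels call WT for their genotype. The study's methods describe stable lines made by lentiviral infection and selected with puromycin, and do not say that they were single clones. No label states that the libraries of one group came from separate cultures, and the p-values therefore measure the spread between these libraries, which may be technical.

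ETS factors bind DNA through a winged helix-turn-helix domain that reads a GGAA core. EHF and ELF3 are among the members of this family whose expression is mostly restricted to epithelia, whereas ELF1, ETS1 and ETS2 are found in many tissues. Grainyhead-like factors (GRHL) switch on genes of cell junctions and of the epidermal barrier, and OVO-like zinc finger proteins (OVOL) repress genes of epithelial-mesenchymal transition (EMT). KLF5 is a Krüppel-like zinc finger factor of epithelia that binds GC-rich and CACCC-type sequences. Binding was not measured in these libraries.

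KLF5 itself had normalized counts of 4371, 4425 and 4494 in the sh-NC libraries and of 1745, 1440 and 1436 in the sh-KLF5 libraries, a log2 fold change of -1.53 (standard error 0.12, limma's Benjamini-Hochberg adjusted p = 2.47e-07), which left 34.8% of the control level. A normalized count is a gene's read number after division by a size factor for its library. The libraries held 15852319 to 17543896 reads, at which 3 reads, the limit that a count of 0 allows, equal a CPM (a count relative to its library total) of 0.171 to 0.189. These limits cover counting error only. In the whole comparison, 955 of 15803 tested genes rose and 1083 fell (adjusted p under 0.05).

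The promoters of 3 of the better measured members are shown first, because KLF5 is a DNA-binding factor: ETS2 fell after its silencing, and EHF and ELF1 did not pass the test. RefSeq (GRCh38.p14) gave windows from 250 bases before to 50 after a start for 6 members, EHF, ELF3, ELF1, ETS2, GRHL1 and GRHL3, and the window nearest the gene start of the deposited table was used. Capitals mark CCACCC or its reverse complement GGGTGG. The windows are chr21:38804933-38805232 on the + strand for ETS2, chr11:34624007-34624306 on the + strand for EHF and chr13:41061337-41061636 on the - strand for ELF1.
ETS2: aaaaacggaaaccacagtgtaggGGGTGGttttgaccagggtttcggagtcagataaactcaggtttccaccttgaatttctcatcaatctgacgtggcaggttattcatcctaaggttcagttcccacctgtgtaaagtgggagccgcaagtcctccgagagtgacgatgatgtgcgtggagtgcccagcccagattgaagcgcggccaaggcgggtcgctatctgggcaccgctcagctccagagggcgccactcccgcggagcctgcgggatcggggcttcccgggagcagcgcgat
EHF: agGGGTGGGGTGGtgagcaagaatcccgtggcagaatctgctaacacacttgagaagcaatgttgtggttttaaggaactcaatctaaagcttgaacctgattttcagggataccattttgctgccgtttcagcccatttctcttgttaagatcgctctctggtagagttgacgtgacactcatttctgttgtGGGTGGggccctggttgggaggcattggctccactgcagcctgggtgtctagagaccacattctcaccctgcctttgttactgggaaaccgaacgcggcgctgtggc
ELF1: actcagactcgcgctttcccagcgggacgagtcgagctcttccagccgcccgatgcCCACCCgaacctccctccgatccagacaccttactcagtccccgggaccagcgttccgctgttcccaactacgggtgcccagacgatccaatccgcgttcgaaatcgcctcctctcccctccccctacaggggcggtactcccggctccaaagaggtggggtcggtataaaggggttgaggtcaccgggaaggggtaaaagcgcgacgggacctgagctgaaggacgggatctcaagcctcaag

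The ETS2 and ELF1 windows each held 1 such match and the EHF window held 3. The EHF window begins inside the gene as the table draws it, since its start lies 3164 bases from that of the table. The same holds for the ELF3 window, whose start lies 2642 bases from that of the table. CCACCC on either strand was found in the windows of 4 of the 6 members (EHF, ELF1, ETS2 and GRHL3) and in 34.3% of all 35116 RefSeq promoter windows of the same length. The 6 members have 11 windows in all, whereas the share over all windows counts every window of a gene. CCACCC was in none of the other windows of EHF, ELF1 and ETS2, and was in the other window of GRHL3. The GC box GGGCGG was found in 3 of the 6 (ELF1, GRHL1 and GRHL3) and in 45.0% of all windows. The E-box CAGGTG, a sequence read by SNAI and ZEB factors, was found in 3 of the 6 (ELF3, ETS2 and GRHL3) and in 20.6% of all windows. Neither GGGCGG nor CAGGTG was in any other window of the members. The ETS core GGAA was in all 6 and in 95.5% of all windows. The longer ETS motif CCGGAAG, the spaced form AACCNGGTT and the OVOL motif CCGTTA were in none of the 6. These motifs were in 10.3%, 0.239% and 3.07% of all windows. AACCNGGTT places a base between the GRHL half-sites AACC and GGTT. Half-sites directly side by side were not searched, so no conclusion on GRHL sites is drawn from it. The motifs were searched on both strands, and those with a GGAA core overlap each other. These matches describe the letters of the windows.

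Among the tested members, ETS1 and ETS2 fell after KLF5 silencing and none rose. With limma on log2(normalized count + 1), 2 of 5 tested members were lower at an adjusted p under 0.05, where 6.85% of all tested genes were lower and 6.04% higher. None passed a log2 fold change of 1 in either direction, where 3.37% of all tested genes were lower and 1.9% higher at this adjusted p. The median log2 fold change of the 5 was -0.55, against -0.0023 over all tested genes. The libraries of the 2 groups did not overlap for 2 of the 5, against 31.3% of all tested genes.

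**Figure D1:**
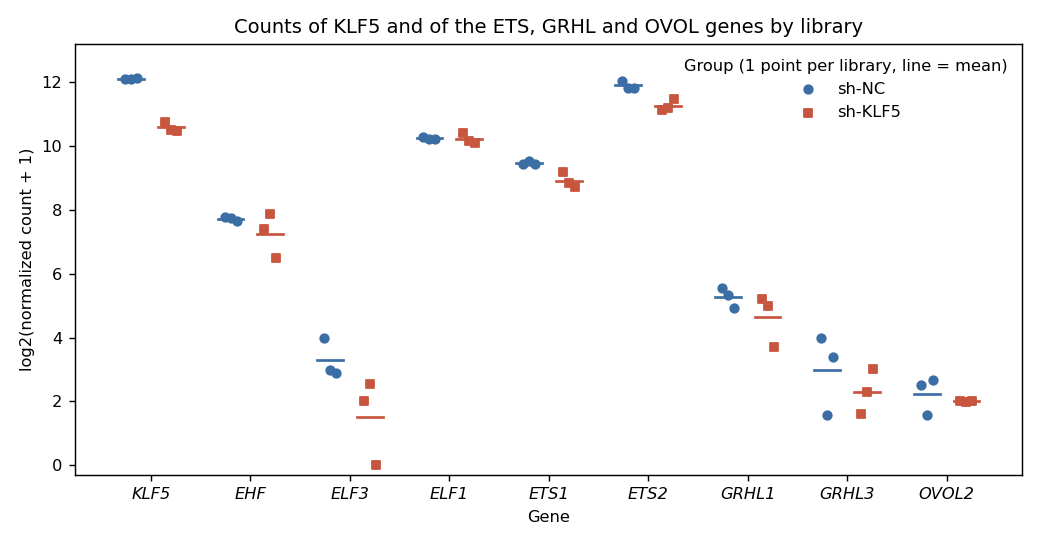
Normalized counts of KLF5 and of the 8 members, as log2(normalized count + 1) on the y axis, with 1 point per library (circles, sh-NC; squares, sh-KLF5) and a line at each group's mean. The libraries of the groups are apart for KLF5, ETS1, ETS2 and ELF3, and ELF3 stands at 10 reads or fewer in all libraries but 1.

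ETS2 (ENSG00000157557, chr21:38805307-38824955, + strand, GRCh38), a ubiquitous nuclear target of RAS and MAP kinase signalling, was the most abundant member. Its normalized counts were 4256, 3636 and 3641 in the sh-NC libraries and 2252, 2324 and 2871 in the sh-KLF5 libraries. Every sh-KLF5 library was below every sh-NC library, and the highest sh-KLF5 value was that of library 3. Means of 3844 ± 357 (SD, n = 3) for sh-NC and 2482 ± 338 (SD, n = 3) for sh-KLF5 left 64.6% of the control level, a log2 fold change of -0.64 (standard error 0.13, 95% interval -0.90 to -0.37, adjusted p = 0.00233 from limma). ETS2 passed under each of the 16 settings, with log2 fold changes from -0.74 to -0.56. None of its exonic bases are shared with another gene of GENCODE release 29.

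ETS1 (ENSG00000134954, chr11:128458761-128587558, - strand), the close paralogue of ETS2 known for roles in lymphoid cells, vessels and invasive tumours, had normalized counts of 697, 748 and 687 in the sh-NC libraries and of 580, 461 and 422 in the sh-KLF5 libraries. The groups did not overlap, and sh-KLF5 library 1 was nearest the controls. The means were 711 ± 32.8 (SD, n = 3) and 488 ± 82.2 (SD, n = 3), which left 68.6% of the control level (log2 fold change -0.55, standard error 0.14, 95% interval -0.84 to -0.27, adjusted p = 0.012 from limma). The direction held under all settings, but the call was lost without sh-NC library 2 (-0.52, adjusted p = 0.0802), without sh-KLF5 library 2 (-0.52, adjusted p = 0.0522) and without sh-KLF5 library 3 (-0.46, adjusted p = 0.0512). No exonic base of ETS1 is shared with another gene.

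ELF1 (ENSG00000120690, chr13:40932028-41061440, - strand), an ETS factor of many tissues studied mostly in blood cells, did not pass the test. Its normalized counts were 1245, 1203 and 1198 in the sh-NC libraries and 1355, 1154 and 1104 in the sh-KLF5 libraries. The sh-KLF5 libraries lay on both sides of the controls. The log2 fold change was -0.02, with a 95% interval from -0.27 to 0.23 (adjusted p = 0.946 from limma). The sign of this value turned without sh-KLF5 library 2 (0.0091) or library 3 (0.041). WBP4, on the opposite strand, shares 3.85% of the exonic bases of ELF1 and did not pass either (adjusted p = 0.575).

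Because a change in one gene and none called in another is no comparison of them, the ratio of ETS2 and ETS1 to ELF1 was taken within each library, a choice made after their values were seen. For ETS2 over ELF1 the log2 ratio of the normalized counts was 1.66 ± 0.10 (SD, n = 3) in the controls and 1.04 ± 0.32 (SD, n = 3) after silencing. For ETS1 over ELF1 the log2 ratio was -0.78 ± 0.079 (SD, n = 3) and -1.31 ± 0.082 (SD, n = 3). Neither ratio overlapped between the groups, and for both the exact permutation test (two-sided) gave p = 0.1, the smallest that 3 libraries against 3 allow.

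**Figure D2:**
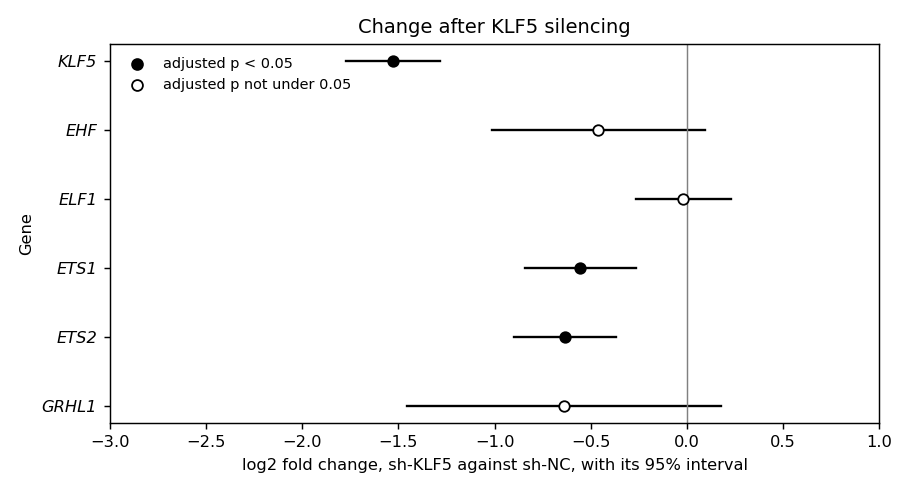
Log2 fold change of sh-KLF5 against sh-NC (x axis) with its 95% interval for KLF5 and the 5 tested members (y axis), from limma. Filled circles had an adjusted p under 0.05 and open circles did not. The intervals of KLF5, ETS1 and ETS2 lie below 0, that of ELF1 spans 0 from -0.27 to 0.23, and those of EHF and GRHL1 reach from below -1 to above 0.

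EHF and ELF3, the epithelium-specific ETS factors examined here, stood below ETS2, ELF1 and ETS1 in these cells. EHF (ENSG00000135373, chr11:34621093-34661057, + strand), known from glandular and stratified epithelia, had normalized counts of 217, 215 and 198 in the sh-NC libraries and of 168, 235 and 89.2 in the sh-KLF5 libraries. In sh-KLF5, library 2 was above every control and library 3 was far below all other libraries, while the 3 controls lay close together. The SD between the sh-KLF5 libraries was 72.9, where counting error alone gives 12.8, and in sh-NC it was 10.1 with a counting error of 14.5. The log2 fold change of EHF was -0.46, with a 95% interval from -1.01 to 0.092 (adjusted p = 0.287 from limma). Without sh-KLF5 library 3 it was -0.078 (adjusted p = 0.834), and over the libraries left out in turn its largest size was -0.77. No exonic base of EHF is shared with another gene.

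ELF3 (ENSG00000163435, chr1:202007945-202017188, + strand), an ETS factor of differentiating epithelia that inflammatory signals induce, was under the filter. The control libraries held 16, 7 and 6 reads of ELF3 and the sh-KLF5 libraries 3, 5 and 0 reads. The groups did not overlap, but at counts this low the fitted fold depends on the pseudocount, and in the fit of all 29185 genes without a filter the adjusted p was 0.0781 (limma). The annotation places 18.5% of its exonic bases within other genes, of which ELF3-AS1 on the opposite strand covers 9.23%. ELF3-AS1 was more abundant than ELF3, with normalized counts of 157, 138 and 111 in sh-NC and of 91.7, 89.3 and 105 in sh-KLF5. Its log2 fold change was -0.49 (adjusted p = 0.118 from limma), although its groups did not overlap. Whether reads were assigned by strand is not given in the sources used here, and reads from the shared bases cannot be told apart without it.

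Of the grainyhead-like members, GRHL1 (ENSG00000134317, chr2:9951693-10002277, + strand), a regulator of desmosomal genes in skin, was measured best. Its normalized counts were 45.6, 39.4 and 29.7 in the sh-NC libraries and 35.7, 31.0 and 12.0 in the sh-KLF5 libraries. The groups overlapped, and library 3 of sh-KLF5 was again the lowest. The log2 fold change was -0.64, with a 95% interval from -1.45 to 0.17 (adjusted p = 0.318 from limma), and it was -0.17 without sh-KLF5 library 3. Its group means left 68.6% of the control level. edgeR and DESeq2 both gave -0.55 on the log2 scale.

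GRHL3 (chr1:24319322-24364482, + strand), which directs formation of the skin barrier, was covered by 16, 2 and 9 reads among the controls and by 2, 4 and 7 reads among the sh-KLF5 libraries. OVOL2 (chr20:17956979-18059188, - strand), a repressor of EMT genes, had 5, 2 and 5 reads in sh-NC and 3 reads in each sh-KLF5 library. The groups overlapped for both, and a difference was not detectable at this depth (adjusted p = 0.63 and 0.905 from limma without a filter). For OVOL2 every sh-KLF5 library was at the limit of 3 reads, so no fold is given. The genes whose coordinates overlap GRHL3 or OVOL2 were STPG1, AL138902.1, MGME1, SNORD17 and SNX5. Of these, AL138902.1 was under the filter and not tested, and none of the others passed the test. SNX5 shares 2.71% of the exonic bases of OVOL2 and the others share none.

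sh-KLF5 library 3 held the lowest value of EHF, ELF3, GRHL1, ETS1 and ELF1 of all 6 libraries, while it held the highest sh-KLF5 value of ETS2. Its total of 16871350 reads was the largest of its group. Over all genes it was not the library that stood apart in its group: per degree of freedom, the chi-square of sh-KLF5 library 1 against libraries 2 and 3 was 23.5 and 30.4, and that of library 2 against library 3 was 10.4. Between sh-NC libraries it was 4.33 to 8.41.

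Per exonic length of the gene, the members spanned a wide range of levels. This length counts every annotated exonic base of a gene and can exceed that of a transcript. In FPKM, reads per kilobase of exon scaled to the library total and computed with the gene lengths of the table, the sh-NC order was ETS2 at 50.8 ± 5.19, ELF1 at 17.0 ± 0.58, ETS1 at 6.03 ± 0.35 and EHF at 2.91 ± 0.19 (SD, n = 3). These 4 did not overlap their neighbours in the order. GRHL1 at 0.292, GRHL3 at 0.135, OVOL2 at 0.111 and ELF3 at 0.0794 FPKM followed, and each of these overlapped the next. ETS2 was above 96.0% of 16074 protein-coding genes, EHF above 46.6% and ELF3 above 15.4%. In sh-KLF5 the first 5 places of the order were taken by the same genes, with ETS2 at 32.9 ± 3.61, ELF1 at 16.9 ± 2.07, ETS1 at 4.16 ± 0.75 and EHF at 2.30 ± 1.07 FPKM (SD, n = 3).

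**Figure D3:**
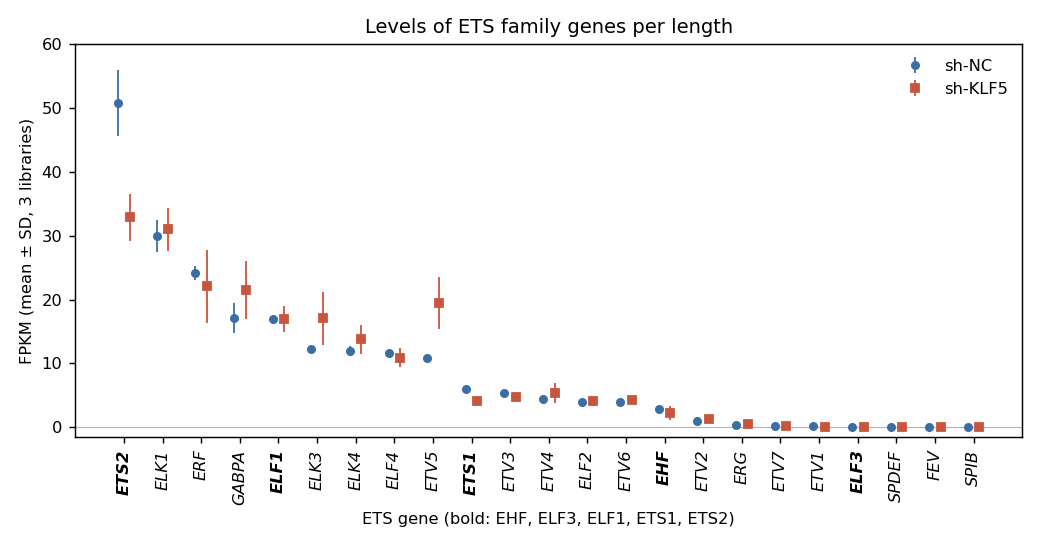
FPKM (y axis, mean ± SD of 3 libraries) of the 23 ETS family genes in the deposited table (x axis), ordered by their level in sh-NC, with sh-NC as circles and sh-KLF5 as squares. ETS2 stands first in sh-NC at 50.8 FPKM and moves down to 32.9 FPKM, while ETV5 moves up and EHF and ELF3 stay near the bottom of the scale.

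Among the 23 genes that the table assigns to the ETS family, ETS2 ranked 1 by FPKM in sh-NC, ELF1 ranked 5, ETS1 ranked 10, EHF ranked 15 and ELF3 ranked 20. The summed FPKM of the family was 215 ± 7.35 for sh-NC and 213 ± 8.58 for sh-KLF5 (SD, n = 3, exact permutation test, two-sided p = 0.9). Within this sum the share of ETS2 was 23.6% ± 1.62 for sh-NC and 15.5% ± 2.36 for sh-KLF5 (SD, n = 3), and the libraries did not overlap (exact permutation p = 0.1, two-sided, the smallest possible). Shares were not among the planned comparisons. ETS2 is the largest term of a sum that hardly moved, so its lower share restates its fall and is no separate result. The share of EHF and ELF3 together was 1.39% ± 0.083 and 1.08% ± 0.48 (SD, n = 3, exact permutation p = 0.4, two-sided), so that EHF and ELF3 made up a small part of ETS transcripts in both groups.

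The other ETS factors mostly did not pass the test. Of 23 named, 15 were tested, 1 rose, 1 fell and the median log2 fold change was 0.10. For this list and those below, the shares over all tested genes were 6.04% higher and 6.85% lower (adjusted p under 0.05 from limma). ETV5, a PEA3-type factor downstream of receptor tyrosine kinases, had normalized counts of 1020, 1008 and 1091 in sh-NC and of 2172, 1911 and 1473 in sh-KLF5 (log2 fold change 0.82, adjusted p = 6.22e-04 from limma). Every sh-KLF5 library was above every control. Its relative ETV1 had 45, 35 and 29 reads in sh-NC and 3, 0 and 1 reads in sh-KLF5 (adjusted p = 1.13e-04 from limma), and is named after its values were seen. Its fitted fold depends on the pseudocount, as its sh-KLF5 libraries are at or under 3 reads.

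Of the relatives of GRHL and OVOL, 3 of 4 named genes were tested and TFCP2L1, a CP2-type factor of kidney and stem cells, fell from 127 ± 24.2 to 78.0 ± 6.47 normalized counts (SD, n = 3, log2 fold change -0.68, adjusted p = 0.0392 from limma). It passed in 2 of 6 fits that each left out 1 library, and not without sh-NC libraries 2 or 3 or sh-KLF5 libraries 2 or 3 (adjusted p up to 0.224).

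**Figure D4:**
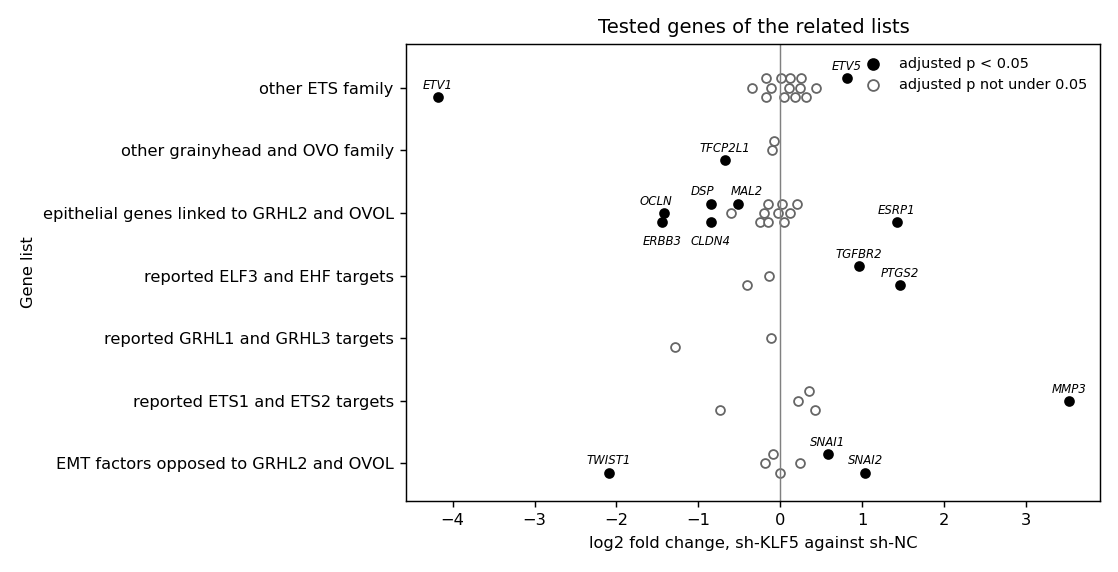
Log2 fold change of sh-KLF5 against sh-NC (x axis) for the tested genes of the 7 related lists (y axis), 1 point per gene, filled and named where the adjusted p was under 0.05 (limma). Across the lists, 7 genes rose and 8 fell of 52 tested, with MMP3 farthest to the right at 3.52 and ETV1 and TWIST1 farthest to the left at -4.18 and -2.09.

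Of 23 epithelial genes linked to GRHL2 and OVOL proteins, 16 were tested, 5 fell and 1 rose, with a median log2 fold change of -0.18. ERBB3, a receptor of neuregulin, fell to 37.1% of its control level, from 209 ± 16.7 to 77.6 ± 17.1 normalized counts (SD, n = 3, log2 fold change -1.44, adjusted p = 1.17e-04 from limma). OCLN, which encodes the tight junction protein occludin, fell from 88.2 ± 18.5 to 32.7 ± 9.65 normalized counts (-1.42, adjusted p = 0.00212). DSP, which encodes the desmosomal protein desmoplakin, fell from 4102 ± 171 to 2284 ± 257 normalized counts (-0.85, adjusted p = 1.07e-04). These 3 passed with each library left out.

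MAL2, a protein of apical transport, fell by 0.51 on the log2 scale (limma's adjusted p = 0.0245), and CLDN4, which encodes the tight junction protein claudin-4, fell by 0.85 (adjusted p = 0.0443). MAL2 passed in 1 and CLDN4 in 0 of 6 fits that each left out 1 library, so that 3 of the 5 falls were left without any library other than sh-KLF5 library 1, and 4 without that one. ESRP1, a splicing factor of epithelial cells, rose from 7.60 to 23.1 normalized counts (1.42, adjusted p = 0.0418) and passed in 1 of these 6 fits, without sh-KLF5 library 2. CLDN4 and ESRP1 are named after their values were seen. CDH1, which encodes E-cadherin, had 151 ± 6.54 and 137 ± 25.9 normalized counts (SD, n = 3, adjusted p = 0.645 from limma). EPCAM, an epithelial adhesion molecule, had 120 ± 21.7 and 118 ± 17.9 (SD, n = 3, adjusted p = 0.954 from limma).

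Genes reported as targets of ELF3 or EHF numbered 7, of which 4 were tested, 2 rose and none fell (1 had an adjusted p under 0.05 and a log2 fold change above 1). PTGS2, the inducible cyclooxygenase, had normalized counts of 1206, 1453 and 1526 in sh-NC and of 4944, 4015 and 2806 in sh-KLF5 (log2 fold change 1.46, adjusted p = 1.85e-05 from limma). TGFBR2, a receptor of TGF-beta, rose from 625 ± 85.6 to 1213 ± 166 normalized counts (SD, n = 3, 0.96, adjusted p = 1.56e-04 from limma). For both, all sh-KLF5 libraries were above all controls.

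Of 10 genes reported as targets of ETS1 or ETS2, 5 were tested, 1 rose and none fell. MMP3, the protease stromelysin, had 95.0, 87.7 and 74.3 normalized counts in sh-NC and 838, 869 and 1337 in sh-KLF5 (log2 fold change 3.52, adjusted p = 2.99e-09 from limma). MMP1, a collagenase, had a log2 fold change of -0.74 with limma's adjusted p at 0.0505, and passed as lower with edgeR and with DESeq2. Of 3 genes reported as targets of GRHL1 or GRHL3, 2 were tested and neither passed, with TGM1, a transglutaminase of the skin barrier, at -1.28 on the log2 scale (limma's adjusted p = 0.0522).

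The factors of EMT that OVOL and GRHL2 are known to oppose moved in both directions, with 2 of 7 higher and 1 lower. SNAI2 rose from 82.5 ± 9.46 to 170 ± 17.4 normalized counts (SD, n = 3, log2 fold change 1.04, adjusted p = 0.00118 from limma). SNAI1 rose from 600 ± 58.7 to 902 ± 132 (SD, n = 3, 0.58, adjusted p = 0.00841 from limma), and its call was lost without sh-NC library 1, sh-NC library 2 or sh-KLF5 library 2. TWIST1 fell from 199 ± 55.7 to 44.8 ± 3.57 normalized counts (SD, n = 3, -2.09, adjusted p = 1.12e-05 from limma). ZEB1 had 734 ± 85.8 and 734 ± 118 normalized counts (SD, n = 3, adjusted p = 0.986 from limma). Over all 7 lists, 7 of 52 tested genes rose and 8 fell, beside 6.04% and 6.85% of all tested genes.

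The labelled cell type was checked against marker lists. Of 9 markers of ovarian carcinoma epithelium all were tested, 4 fell (KRT7, KRT8, KRT18 and MUC16) and none rose, and their summed level was 3305 to 3921 CPM in sh-NC and 1748 to 2303 CPM in sh-KLF5. Of 6 fibroblast markers 5 were tested and 3 fell, with a sum of 63.2 to 92.9 CPM and 23.7 to 46.2 CPM. Over all tested genes 6.85% were lower and 6.04% higher (adjusted p under 0.05 from limma). None of the immune markers was tested, at sums of at most 0.296 CPM, and of the endothelial markers 1 was tested and did not pass. These 4 epithelial and 3 fibroblast markers fell in the same comparison as ETS1 and ETS2, and their part in the results was not tested. In bulk libraries, fewer cells expressing a gene and less of its RNA per cell cannot be told apart.

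The genes whose normalized counts followed ETS1 most closely over the 6 libraries, of 12805 protein-coding genes searched, were PHF14 (Pearson r = 0.998) and KLHL23 (r = 0.992). For ETS2 they were ACVR2B (r = 0.995) and TTC30B (r = 0.991). KLHL23, ACVR2B and TTC30B were lower in sh-KLF5, with log2 fold changes of -0.61, -0.73 and -0.68 (adjusted p = 0.00924, 0.0133 and 0.0318 from limma), and PHF14 had -0.27 (adjusted p = 0.154). These values describe 6 libraries that share 1 cell line and 2 groups. The genes were picked for following members that differ between the groups, so lower levels in sh-KLF5 come with that choice.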

How the data were processed

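Polyadenylated RNA of 3 sh-KLF5 and 3 sh-NC libraries was sequenced. Submitters' processing notes name HISAT2 2.0.5, featureCounts 1.5.0-p3, DESeq2 1.20.0 and hg38. The authors deposited 1 table with a normalized signal per library (reads divided by a size factor, which is a normalized count), besides their means, log2 fold changes and p-values, which were not used. Reads were recovered as whole numbers for 100% of values (tolerance 0.001).

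limma 3.58.1 in R 4.3.3 (trend, robust) was run on log2(normalized count + 1) over the 15803 genes kept by filterByExpr (minimum count 10), with Benjamini-Hochberg adjustment. The pseudocount draws the fold changes of low genes towards 0. Alternatives included edgeR 4.0.16 and DESeq2 1.42.0 on recovered reads. On simulated counts limma recovered 93.1% of 87 genes changed by 1 on the log2 scale and 100% of 113 changed by 2, of 15779 tested, with 10 false calls. The simulated libraries had the same spread in both groups, and no gene changed by less than 1. Recovery of smaller changes, such as those of the tested members, was not tested.

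Members and lists were chosen with earlier results of these data known. Named were all members, KLF5, overlapping genes, up to 4 passing genes per list with a mean of at least 50 normalized counts, CDH1, EPCAM, ZEB1, and the 2 genes most like each passing member. A gene that the rule also named is not reported here. The same replicate number does not mark shared cultures in the labels.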

Additional observations from a re-analysis of the deposited data

How the results depend on the processing

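ETS2 kept its direction and its call under all 16 settings, and KLF5 lay between -1.62 and -1.48 on the log2 scale with single libraries left out. ETS1 kept its direction, with its call lost in 3 fits that left out a library. Leaving out each library in turn gave 518 to 1272 higher and 699 to 1514 lower genes, 0 higher and 1 to 2 lower members, and 5 to 8 higher and 5 to 7 lower genes of the lists. ELF1 lay between -0.11 and 0.041, and its sign turned without sh-KLF5 library 2 (0.0091) and without sh-KLF5 library 3 (0.041). Past a log2 fold change of 1, there were 301 higher and 533 lower genes, 0 lower members, and 4 higher and 4 lower genes of the lists. At an unadjusted p under 0.05, there were 2024 higher and 2110 lower genes. On the forward strand alone AACCNGGTT, which is its own reverse complement, stayed at 0.239% of windows and the other motifs were in fewer, with GGAA in 78.8%, CCGGAAG in 5.75%, CCGTTA in 1.48%, CCACCC in 18.0%, GGGCGG in 30.6% and CAGGTG in 11.5%.

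Groups share replicate numbers, but samples with the same number did not deviate together in every pair (correlations 0.22, 0.0072 and 0.161 over 11937 genes), and sh-NC library 2 correlated best with sh-KLF5 library 1. A fit with the number as replicate block gave these counts: 1292 genes were higher and 1383 lower, 0 members were higher and 2 lower, 9 genes of the lists were higher and 10 lower, and KLF5 had -1.53. Among the lists, MMP1 passed as lower with edgeR, DESeq2, a pseudocount of 5, no filter, the block, and without sh-NC library 1 or sh-KLF5 library 3. TGM1 passed as lower with a pseudocount of 5 and with the block. ELK3 passed as higher with edgeR, DESeq2, no filter, the block and without sh-KLF5 library 3, and PLAUR with the block and without sh-KLF5 library 3. Of the other values under settings other than a left-out library, 174 stayed and 25 moved. With 0 to 16 reads per library, the depth does not resolve changes of ELF3, GRHL3 or OVOL2.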
